A study of Sus scrofa with 24 samples.

Results

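The comparison described here set the second cohort of piglets (replicates 4 to 6 of every group) against the first cohort (replicates 1 to 3), which gave 12 of the 24 hippocampus libraries to each cohort. The cohort number was read from the cohort label of each sample, which does not say what the number stands for. Each litter gave 1 small for gestational age (SGA) and 1 appropriate for gestational age (AGA) piglet of the same sex, so the 12 piglets of a cohort came from 6 litters. The litter was the unit or the block of every main test, and alternative fits with libraries as units are named as such. Litters are numbered 1 to 6 in cohort 1 and 7 to 12 in cohort 2.

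The study measured whether a formula with hydrolyzed fat (HF), which supplies free fatty acids and monoacylglycerols, differed from a control formula (CON) in its effects on the brain of SGA and AGA piglets. All piglets were PIC Camborough by PIC 359 crosses, were individually caged and formula fed, and were killed at 14 days of age for polyadenylated RNA sequencing of the hippocampus. Each of the 4 groups (AGA CON, SGA CON, AGA HF and SGA HF) held 3 piglets per cohort, so size and diet were balanced between cohorts. Sex was not balanced: cohort 1 held 4 male and 2 female litters, and cohort 2 held 2 male and 4 female litters, so sex was a term in the model. Litters 3 (HF) and 4 (CON) were the only female litters of cohort 1. Season, caretaker, and the days of dissection, RNA extraction and library preparation are not given in the sources used here, so whatever else differed between the cohorts cannot be told apart from cohort.

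Several of the genes that separated the cohorts belong to immune and glial programs. Immunoglobulin heavy and light chains are made by B cells and plasma cells, which are scarce in brain tissue, while interferons induce a shared set of antiviral genes, the presentation genes of the major histocompatibility complex (MHC; SLA in pig), and the chemokines that attract T cells, in most cell types. Oligodendrocytes wrap axons in myelin, and myelination of the hippocampus is under way in the neonatal pig. Microglia are the resident immune cells of the brain.

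The libraries held 6017336 to 9284355 counted reads each, and a count of 3 in a library corresponded to 0.323 to 0.499 CPM, the count scaled to a common library size. Of 38882 listed genes, 16326 reached 1 CPM in at least 3 libraries and were tested. Total counts were 7157277 ± 749493 in cohort 1 and 7854117 ± 718560 in cohort 2 (mean ± SD of litter means, n = 6 litters; two-sided exact permutation test, p = 0.132, adjusted p = 0.264 over 6 measures of library quality). Summed over the 27 matched genes of the hippocampal fields, levels overlapped fully, with 819 to 1300 CPM in cohort 1 and 918 to 1240 CPM in cohort 2. The library of SGA HF replicate 4, a male piglet of litter 7 in cohort 2, stood apart: it had 305 CPM of GH1 (growth hormone, a pituitary product), whereas the highest level among the other 23 piglets was 5.04 CPM. Leaving that library out gave 21 genes higher and 31 lower in cohort 2.

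After adjustment over all 16326 genes, 28 genes (0.172%) were higher and 45 (0.276%) were lower in cohort 2 than in cohort 1, together 73 genes or 0.447% (edgeR quasi-likelihood test on litter sums with diet and sex as terms, Benjamini-Hochberg adjusted p under 0.05). Without the sex term 37 were higher and 17 lower, and with scaling by library totals only 15 were higher and 38 lower. The genes lower in cohort 2 included immunoglobulin loci, interferon-induced genes, MHC genes and chemokines. Their 45 log2 fold changes had a median of -1.78 (range -9.74 to -0.37). Several of these genes had few reads in cohort 2, among them CXCL9 (mean 0.0547 CPM) and RSAD2 (0.177 CPM), and there the fitted fold depends on the prior count. Genes higher in cohort 2 included oligodendrocyte and microglial genes, with a median of 0.52 (range 0.33 to 1.34). The sizes of the 2 medians are therefore not directly comparable. The direction was the same in all 4 size and diet groups for 26 of the 28 higher and 42 of the 45 lower genes. The 6 litter values of the cohorts did not overlap for 21 of the 28 higher genes and for 14 of the 45 lower genes. Of all tested genes, 0.613% did not overlap in each direction. The 73 genes were called on these same piglets, so neither the shared direction nor the lack of overlap is a separate test.

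Few litters held the highest levels of the lower genes. For 39 of the 45, the litter with the highest level was litter 4 (30 genes) or litter 3 (9 genes). Without these 2 litters, a choice made after their values were seen, cohort 1 held 4 litters, all male. In that fit all 73 genes kept their direction, but its litters had also given the calls, so this is no separate test. The median of the 45 lower genes was -0.96 and 0 of the 73 were called by edgeR. Among female litters alone, which in cohort 1 are litters 3 and 4, the median of the lower genes was -2.27 and 27 of the 45 were called. Among male litters alone their median was -0.95 and 5 of the 45 were called, which were OAS2, MID2, UCMA, RPL15 and LOC102161607. When any 1 litter was left out, 11 of the 73 genes stayed called in every fit (EFHD1, OAS2, 8 of the 9 antigen-receptor and neighbouring loci described next, and LOC102167096 on an unplaced scaffold), and the other 62 lost their call in at least 1, each of them without litter 3. The 28 higher genes had medians of 0.49 in females, 0.55 in males and 0.54 without litters 3 and 4.

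The strongest differences lay in antigen-receptor genes. Reads of LOC396781, which the name table lists with the synonym IGHG and which encodes an immunoglobulin gamma heavy chain, numbered 7312 over the 12 libraries of cohort 1 and 58 over those of cohort 2. Its lowest, median and highest levels were 0.136, 17.5 and 413 CPM in cohort 1, and 0, 0.498 and 1.84 CPM in cohort 2 (adjusted p = 0.000319). In cohort 1, 6 piglets lay above every cohort 2 piglet, and the other 6 lay within the cohort 2 range.

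Of 61 listed antigen-receptor segments, in a list added after results were seen, 8 were tested, 3 were called lower and 0 higher in cohort 2, 5 were lower at an unadjusted p under 0.05, and the median log2 fold change was -3.82. Of the 5 not called, LOC102158411 and LOC102158002 had values above 0 (0.33 and 0.47, adjusted p = 0.934 and 0.869), and the lowest was LOC102167466 (-4.72 ± 1.2, adjusted p = 0.13). LOC100623458, a variable (V) segment on chromosome 14 at 52392135 to 52393571 (Sscrofa10.2), had 957 reads in cohort 1 and 4 in cohort 2 (adjusted p = 0.000184). LOC100736878, a V segment on chromosome 3, had 1612 and 12 reads (adjusted p = 0.00117), and LOC102165485, a constant region on an unplaced scaffold, had 733 and 24 reads (adjusted p = 0.018). No fold changes are given for these loci, since with so few reads in cohort 2 a fitted fold depends on the prior count. On chromosome 14, between 52245854 and 52543154, 16 genes were listed, 9 were tested and 6 were called, all lower in cohort 2. These are LOC100623458 and 5 neighbours (LOC102168097, LOC100623670, LOC100152327, LOC102161607 and LOC100738484), for which the name table gives no immunoglobulin annotation.

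The 9 loci above, a set made after their values were seen (LOC396781, LOC100736878, LOC102165485 and the 6 on chromosome 14), were summed in each piglet. Their lowest, median and highest levels were 0.272, 36.5 and 703 CPM in cohort 1, and 0.164, 0.979 and 2.49 CPM in cohort 2. In cohort 1, 6 piglets exceeded 10 CPM, namely both piglets of litter 3 (297 CPM in AGA, 345 CPM in SGA), both piglets of litter 4 (703 and 492 CPM), the AGA piglet of litter 2 (70.3 CPM) and the SGA piglet of litter 6 (128 CPM). No cohort 2 piglet did. The littermates of the latter pair of piglets were low, with 0.378 CPM in the SGA piglet of litter 2 and 2.03 CPM in the AGA piglet of litter 6, so the level differed within litters of identical diet and sex. In cohort 1, 2 piglets were under 1 CPM.

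**Figure D1:**
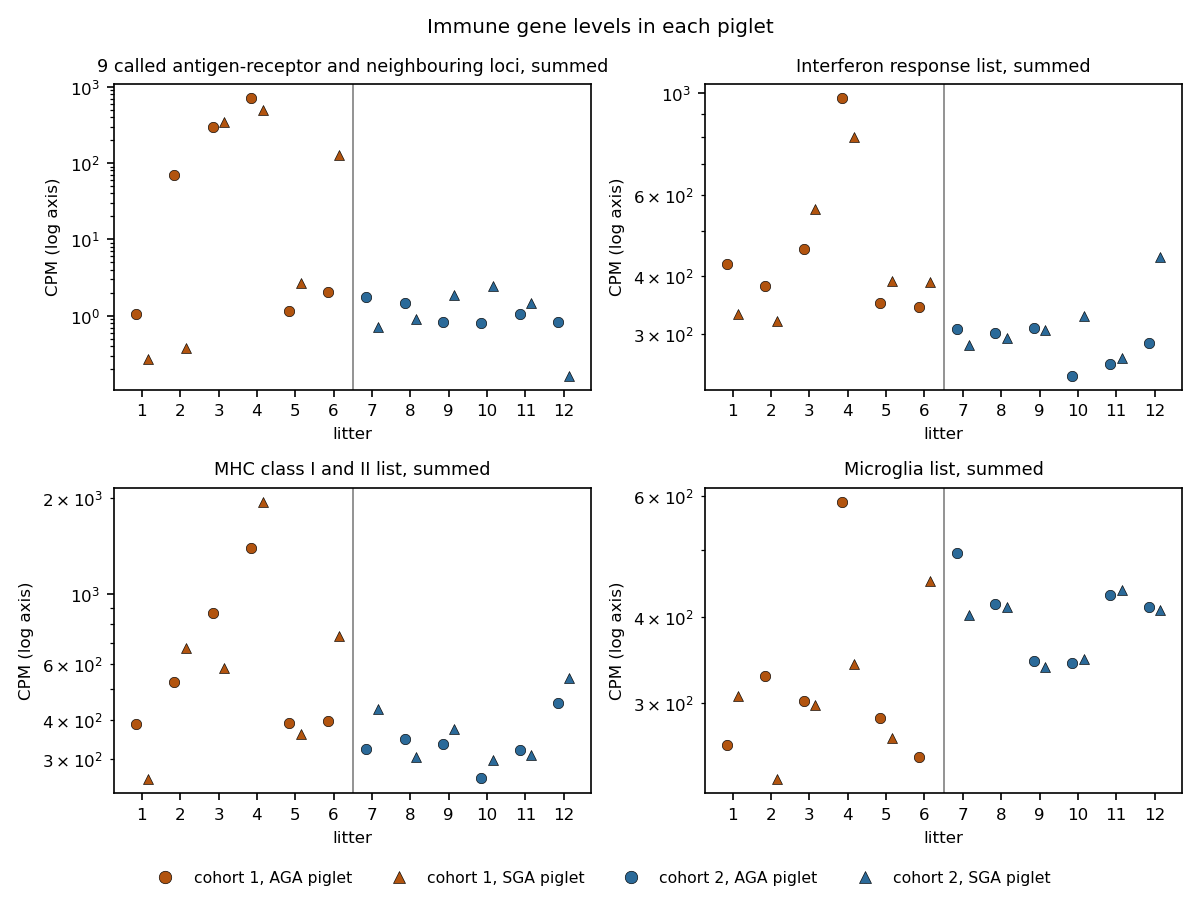
Summed CPM (log axis) of the 9 called antigen-receptor and neighbouring loci, and of the interferon response, MHC and microglia lists, in each piglet by litter; orange is cohort 1, blue is cohort 2, circles are AGA and triangles are SGA piglets, and the grey line separates the cohorts. The antigen-receptor loci exceeded 10 CPM in 6 cohort 1 piglets and reached at most 2.49 CPM in cohort 2, and litter 4 was highest for the interferon list (972 and 803 CPM).

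Genes of lymphocytes and their chemokines were lower as well. The list of T, B and plasma cell genes was added after results were seen. Of its 18 tested members, 4 were called, all lower in cohort 2: CD3E (a subunit of the T cell receptor complex), JCHAIN (which joins IgA and IgM multimers), GNLY (a granule protein of cytotoxic cells) and SPN (a leukocyte surface glycoprotein). JCHAIN ranged from 2.57 to 19.8 CPM with a median of 4.62 in cohort 1, and from 1.64 to 3.62 CPM with a median of 2.70 in cohort 2. Of the cohort 1 piglets, 7 lay above every cohort 2 piglet. The log2 fold change of JCHAIN was -1.53 ± 0.30 (SE, adjusted p = 0.0416). CD3E had 101 reads in cohort 1 and 12 in cohort 2 (log2 fold change -3.41 ± 0.62, adjusted p = 0.0295). With so few reads in cohort 2, the size of that fold depends on the prior count. In cohort 1, litter 4 had 4.05 CPM of CD3E, and litters 1 and 5 had 0 and 0.13 CPM, not above all litters of cohort 2 (0.0679 to 0.176 CPM). The list had a median log2 fold change of -0.101, against -0.012 for all genes tested, and 7 members were lower at an unadjusted p under 0.05 (6.06% of all tested genes).

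Chemokines had a lower list median. Of 13 tested chemokines, in a list also added later, 3 were called and all were lower in cohort 2, while 7 were lower at an unadjusted p under 0.05, and the list median was -0.763. CCL5, a ligand for receptors on T cells, had 0.644, 2.16 and 12.0 CPM (lowest, median, highest) in cohort 1 and 0.119, 0.666 and 1.40 CPM in cohort 2, with 10 cohort 1 piglets above all cohort 2 piglets. Its log2 fold change was -2.78 ± 0.44 (adjusted p = 0.0142). CXCL9, which is induced by interferon gamma, had 172 reads in cohort 1 and 5 in cohort 2 (adjusted p = 0.0107). Litters 3 and 4 had 3.41 and 8.73 CPM of CXCL9, and the other litters of cohort 1 had 0 to 0.764 CPM. The neighbouring gene CXCL10 had a log2 fold change of -2.37 ± 0.46 (adjusted p = 0.0416). Both lie on chromosome 8 within 75801515 to 75882217.

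The interferon response list was lower in cohort 2. Of 26 tested members, 7 were called, all lower, and 25 were lower at an unadjusted p under 0.05, against 6.06% of all tested genes. The median log2 fold change was -0.82. Among the 7 were OAS2, HERC5, IFIH1, RSAD2, USP18 and CXCL10. OAS2, which makes the second messenger that activates RNase L, had 24.6, 52.3 and 123 CPM in cohort 1 and 21.1, 26.6 and 40.0 CPM in cohort 2, and its litter means did not overlap. Mean levels were 58.7 ± 24.1 and 28.4 ± 3.76 CPM (SD, n = 6 litters each), a log2 fold change of -1.14 ± 0.16 (adjusted p = 0.00949). OAS2 stayed called when any 1 litter was left out.

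IFIH1, a cytosolic sensor of double-stranded RNA, had 160 reads in cohort 1 and 59 in cohort 2 (log2 fold change -1.84 ± 0.35, adjusted p = 0.0386). USP18, which removes ISG15 and limits interferon signalling, ranged from 3.48 to 32.3 CPM in cohort 1 and from 3.66 to 5.32 CPM in cohort 2 (-1.42 ± 0.28, adjusted p = 0.0439), and ISG12(A), an interferon-induced gene outside the list, averaged 59.7 ± 54.0 and 22.2 ± 2.24 CPM (-1.45 ± 0.30, adjusted p = 0.0459). Litter 4 was the highest litter: the summed list reached 972 CPM in its AGA and 803 CPM in its SGA piglet, compared with 319 to 558 CPM in the other cohort 1 piglets and 243 to 439 CPM in cohort 2. Members not called include ISG15 (log2 fold change -0.98, adjusted p = 0.200) and MX1 (-0.52, adjusted p = 0.275), and OASL was the exception in sign (0.34, adjusted p = 0.778).

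MHC genes, whose summed level was also highest in litter 4 (1390 CPM in the AGA and 1950 CPM in the SGA piglet), were lower in cohort 2 by the same measures. All 17 tested members had a log2 fold change below 0 (8705 of all 16326 tested genes), with a median of -0.805. Of the 17, 14 were lower at an unadjusted p under 0.05 (6.06% of all tested genes). The 2 called were SLA-DRA, a class II alpha chain, and SLA-3, a classical class I heavy chain. SLA-DRA had 3.00, 12.3 and 82.8 CPM in cohort 1 and 1.19, 3.30 and 8.54 CPM in cohort 2, where 7 cohort 1 piglets exceeded every cohort 2 piglet (log2 fold change -2.38 ± 0.48, adjusted p = 0.0453). SLA-3 averaged 132 ± 112 and 58.9 ± 17.9 CPM (-1.20 ± 0.25, adjusted p = 0.0468). On chromosome 7 it lies beside LOC100622791 (-2.12 ± 0.32, adjusted p = 0.0108) and LOC100736977 (-1.76 ± 0.30, adjusted p = 0.018), which were also lower. Of the 4 called genes in that stretch, LOC100514169 was the only 1 called higher in cohort 2. MHC genes have near-identical copies, and reads that map to several places were not counted, so the split among members is uncertain.

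These list medians varied between subsets of the piglets. The interferon median was -1.24 in female litters, -0.279 in male litters and -0.288 without litters 3 and 4. The MHC median was -1.24, -0.442 and -0.414 in the same subsets. By diet, the MHC median was -1.29 in CON and -0.419 in HF litters, and the interferon median was -1.08 and -0.755. The differences between subsets were not tested. In AGA and SGA piglets taken separately the interferon medians were -0.975 and -0.834.

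**Figure D2:**
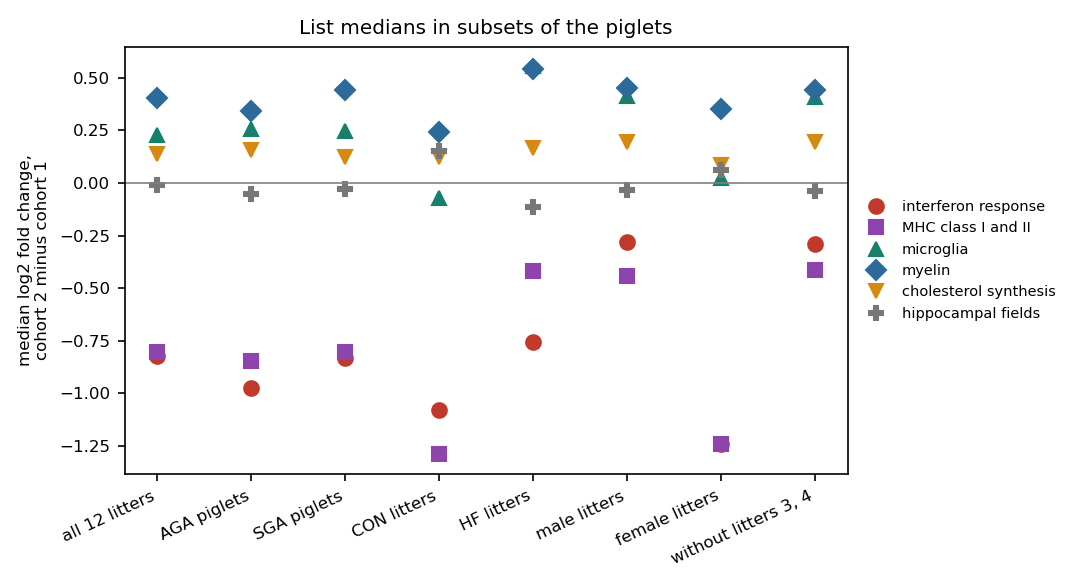
Median log2 fold change (cohort 2 minus cohort 1) of 6 gene lists, over all 12 litters and in 7 subsets. The subsets share litters, and the fit without litters 3 and 4 is close to that of male litters. The interferon and MHC medians lie below 0 in all 7 subsets, with the interferon median nearest to 0 in male litters (-0.279) and the MHC median without litters 3 and 4 (-0.414), while the myelin median lies between 0.241 and 0.541.

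Genes of myelinating oligodendrocytes were higher in cohort 2. Of 20 tested members of the myelin list, 19 had a log2 fold change above 0 (7621 of all 16326 tested genes). Of the 20, 16 were higher at an unadjusted p under 0.05 (5.13% of all tested genes), and 2 were called. The list median was 0.403. FA2H, which hydroxylates the fatty acids of myelin galactolipids, had 210, 255 and 362 CPM (lowest, median, highest) in cohort 1 and 244, 365 and 398 CPM in cohort 2. Its litter means were 261 ± 29.5 and 353 ± 26.7 CPM (n = 6 litters each), a log2 fold change of 0.42 ± 0.083 (adjusted p = 0.043).

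Other members did not pass the adjusted threshold. MBP (myelin basic protein) had a log2 fold change of 0.23 ± 0.13 (adjusted p = 0.567) and CNP, a myelin phosphodiesterase, one of 0.50 ± 0.11 (adjusted p = 0.0598). MYRF, the transcription factor that drives myelin gene expression, had 0.55 ± 0.13 (adjusted p = 0.0795). Summed, the list held 13100 to 25900 CPM in cohort 1 and 14300 to 28000 CPM in cohort 2, so single piglets overlapped widely. In bulk tissue, more oligodendrocytes and more RNA per oligodendrocyte cannot be told apart. OLIG2, a factor of the whole oligodendrocyte lineage, averaged 53.4 ± 5.73 and 69.2 ± 6.68 CPM (0.41 ± 0.082, adjusted p = 0.043), and was the only called member among 15 progenitor genes, whose median was 0.0511 (5 higher and 1 lower at an unadjusted p under 0.05). PDGFRA, the defining progenitor receptor, had -0.02 (adjusted p = 0.953).

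EFHD1, a mitochondrial calcium-binding protein, had the smallest p of the higher genes, with 80.7, 105 and 161 CPM in cohort 1 and 124, 189 and 242 CPM in cohort 2. Its litter values did not overlap, 9 cohort 2 piglets lay above every cohort 1 piglet, and the log2 fold change was 0.76 ± 0.11 (adjusted p = 0.00814). It stayed called when any 1 litter was left out. TMEM88B averaged 112 ± 13.1 and 158 ± 7.82 CPM (0.47 ± 0.075, adjusted p = 0.0142). AGPAT4, an acyltransferase of phospholipid synthesis, averaged 96.6 ± 5.96 and 123 ± 6.98 CPM (0.37 ± 0.061, adjusted p = 0.018). CD9, a tetraspanin, ranged from 10.5 to 21.4 CPM in cohort 1 and from 12.8 to 27.2 CPM in cohort 2 (0.54 ± 0.091, adjusted p = 0.019).

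Called genes outside the naming rule, chosen after their values were seen, include APOD (apolipoprotein D, a lipid carrier of glia; 0.54 ± 0.10, adjusted p = 0.0386) and GJB1 (connexin 32, in myelinating glia; 0.51 ± 0.098, adjusted p = 0.0386). APOD averaged 317 ± 55.1 CPM in cohort 1 and 469 ± 27.4 CPM in cohort 2, and GJB1 averaged 34.5 ± 3.20 and 48.9 ± 7.45 CPM. Both had litter values that did not overlap.

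**Figure D3:**
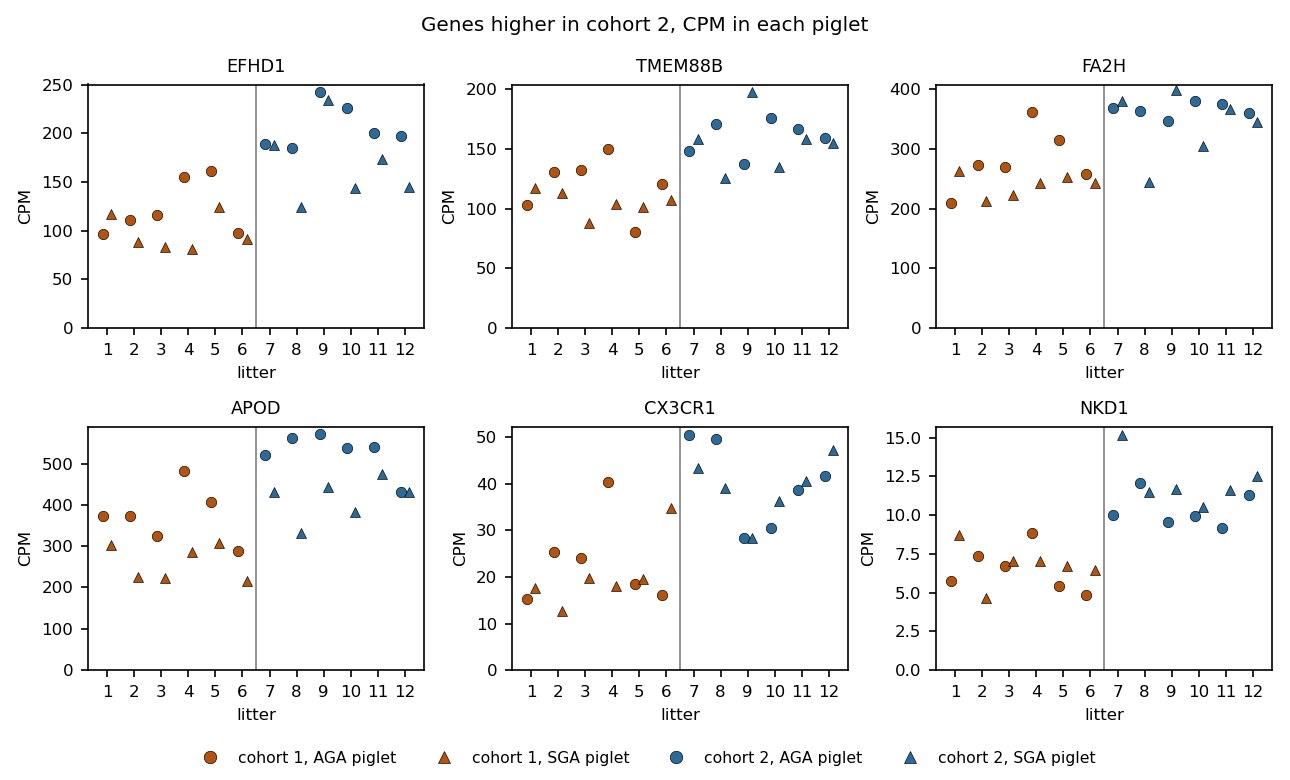
CPM of EFHD1, TMEM88B, FA2H, APOD, CX3CR1 and NKD1 in each piglet by litter, with orange for cohort 1, blue for cohort 2, circles for AGA and triangles for SGA piglets. All 12 cohort 2 piglets lie above all cohort 1 piglets for NKD1, and the other genes overlap between single piglets.

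Microglial genes were mixed. CX3CR1, the fractalkine receptor of microglia, was called, with 12.6, 19.0 and 40.3 CPM in cohort 1 and 28.3, 39.8 and 50.4 CPM in cohort 2, and 6 cohort 2 piglets above every cohort 1 piglet. Its log2 fold change was 0.81 ± 0.14 (adjusted p = 0.025). Of 18 tested microglial genes, 5 were higher and 1 was lower at an unadjusted p under 0.05, and the list median was 0.228. Homeostatic markers had positive values that did not pass adjustment, 0.47 ± 0.17 for P2RY12 (adjusted p = 0.297) and 0.62 ± 0.21 for TMEM119 (adjusted p = 0.267), whereas CTSS, a lysosomal protease, had -0.68 ± 0.21 (adjusted p = 0.212). The list median was 0.412 in male and 0.0233 in female litters, and it was -0.0694 in CON and 0.554 in HF litters. TLR9, a receptor for unmethylated DNA, was called at 0.92 ± 0.17 (adjusted p = 0.0388), with 3.95 ± 0.912 and 7.60 ± 1.28 CPM.

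NKD1, an inhibitor of Wnt signalling, separated every piglet: it had 4.66, 6.71 and 8.87 CPM in cohort 1 and 9.16, 11.4 and 15.2 CPM in cohort 2 (0.73 ± 0.11, adjusted p = 0.013). KCNA6, a voltage-gated potassium channel, averaged 222 ± 14.0 and 303 ± 25.2 CPM (0.44 ± 0.066, adjusted p = 0.0107). SLC6A9, the glycine transporter of glia, averaged 16.6 ± 1.84 and 23.4 ± 2.31 CPM (0.54 ± 0.092, adjusted p = 0.018).

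GAL, the precursor of the neuropeptide galanin, was the gene with the largest log2 fold change among the 10 higher genes of smallest p that have a symbol, from 1.92 ± 0.781 to 4.52 ± 1.21 CPM (1.14 ± 0.19, adjusted p = 0.018). UCP2, a mitochondrial carrier, averaged 15.6 ± 1.13 and 29.4 ± 9.33 CPM (0.74 ± 0.15, adjusted p = 0.0447), with 10 cohort 2 piglets above every cohort 1 piglet. CDC42EP2, an effector of the GTPase CDC42, and MVB12B, a subunit of the endosomal sorting complex, had 0.53 ± 0.091 (adjusted p = 0.019) and 0.35 ± 0.061 (adjusted p = 0.0214).

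Genes of neuronal development were lower in cohort 2 in a few cases. PLXNA4, a semaphorin coreceptor of axon guidance, averaged 11.1 ± 0.635 and 6.90 ± 1.26 CPM without overlap between litters (-0.62 ± 0.12, adjusted p = 0.0398), and was the only called member of the 16 immature neuron genes, whose median was -0.0677. ST8SIA2, which adds polysialic acid to neural cell adhesion molecule and was chosen after its value was seen, averaged 13.6 ± 2.05 and 9.59 ± 1.00 CPM (-0.54 ± 0.11, adjusted p = 0.043). DCX, a microtubule protein of migrating neurons, had -1.13 ± 0.25 (adjusted p = 0.0784). Of the other lower genes, MID2 (an E3 ubiquitin ligase on chromosome X) averaged 32.8 ± 7.25 and 18.4 ± 5.34 CPM (-0.93 ± 0.15, adjusted p = 0.018). UCMA, a matrix protein of cartilage, averaged 17.4 ± 5.26 and 6.03 ± 3.87 CPM (-1.97 ± 0.34, adjusted p = 0.0207), and FAM118A averaged 38.5 ± 3.94 and 30.1 ± 1.56 CPM (-0.40 ± 0.069, adjusted p = 0.0218).

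The full set of lists had few other calls. In the ribosomal protein list, 48 of 50 members had a log2 fold change below 0 (8705 of all 16326 tested genes), with a median of -0.09. Of the 50, 1 was called (RPL15), and the list median was -0.00682 without litters 3 and 4. The endothelial and mural list had a median of -0.178 (5 of 20 lower at an unadjusted p under 0.05, none called), and the astrocyte list one of -0.0983 (5 of 18 lower, none called). No member was called among immediate early, clock, glucocorticoid, heat shock, hypoxia, choroid plexus, ependymal, meningeal, thalamic, striatal, interneuron, glutamate receptor, cell cycle, respiratory, iron, thyroid hormone or fatty acid lists, whose medians lay between -0.0848 and 0.11. For PEA15 and HSPA8, which were followed because of earlier results of these libraries, no difference was detected: PEA15 averaged 3320 ± 340 and 3350 ± 155 CPM (0.02, adjusted p = 0.952), and HSPA8 ranged from 55.9 to 115 CPM in cohort 1 and from 47.2 to 116 CPM in cohort 2 (-0.04, adjusted p = 0.939).

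**Figure D4:**
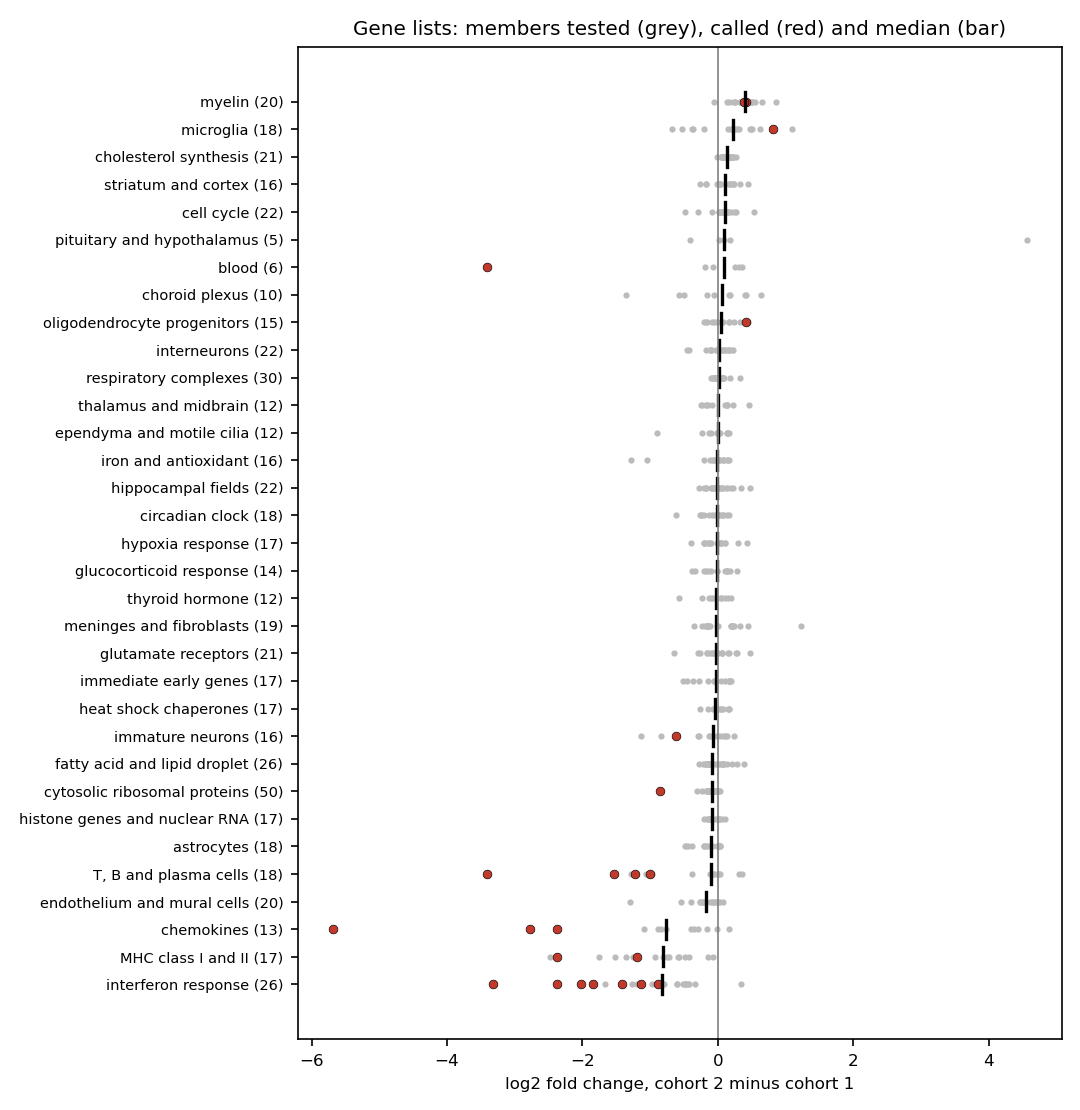
Log2 fold change (cohort 2 minus cohort 1) of the tested members of the gene lists other than antigen-receptor segments, with the number tested in parentheses, grey points for members not called, red points for called members and a bar for the list median. Of the lists shown, interferon, MHC and chemokines have the lowest medians (-0.82, -0.805 and -0.763), and the myelin list the highest (0.403).

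RPL15 and a neighbouring gene moved in opposite directions. On chromosome 13 RPL15, a protein of the large ribosomal subunit, lies at 12164825 to 12167957 and LOC100620439 at 12255226 to 12258399. RPL15 averaged 181 ± 30.1 and 109 ± 37.1 CPM (-0.86 ± 0.17, adjusted p = 0.043), and LOC100620439 averaged 69.2 ± 34.5 and 155 ± 43.6 CPM (1.34 ± 0.27, adjusted p = 0.0447). LOC100620439 fell into separate ranges: it was under 1 CPM in 5 cohort 1 and 1 cohort 2 piglets, between 93.0 and 152 CPM in 6 and 6, and between 177 and 273 CPM in 1 and 5. Littermates could differ, since in litter 1 the AGA piglet had 273 CPM of LOC100620439 and 56.5 CPM of RPL15, and the SGA piglet 0.545 and 231 CPM. Ribosomal protein genes have near-identical copies, so the assignment of reads to RPL15 is uncertain. Whether LOC100620439 is such a copy, and whether reads were misassigned between these loci, was not tested.

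The test of whether the diet difference depended on cohort called 1 gene. The interaction of cohort and diet was called for ADIRF alone (0.00613% of tested genes; 788 genes, 4.83%, at an unadjusted p under 0.05). ADIRF, a factor named for its induction in adipogenesis, was under 1 CPM in all 6 CON piglets of cohort 2 and in 1 HF piglet (SGA HF replicate 4, 0.237 CPM), whereas the other 5 HF piglets of cohort 2 had 11.6 to 21.0 CPM. In cohort 1, 11 piglets had 9.17 to 30.6 CPM and 1 (AGA CON replicate 1) had 0.259 CPM. Each diet held 3 litters per cohort, so a low or high range shared by single litters cannot be told apart from a diet effect. The HF minus CON log2 difference was -0.25 in cohort 1 and 6.89 in cohort 2, and the difference of these was 7.13 ± 0.72 (adjusted p = 0.00186). With litter sums of CON in cohort 2 at most 0.112 CPM, the size of that fold depends on the prior count, but the call held without any 1 litter (adjusted p 0.000223 to 0.0346). Next in rank was TTR, the thyroxine carrier of the choroid plexus, at 2.87 ± 0.52 (adjusted p = 0.407): CON litters averaged 56.1 ± 34.1 CPM in cohort 1 and 7.98 ± 3.59 CPM in cohort 2, and HF litters 11.1 ± 0.981 and 11.5 ± 2.42 CPM (n = 3 each).

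**Figure D5:**
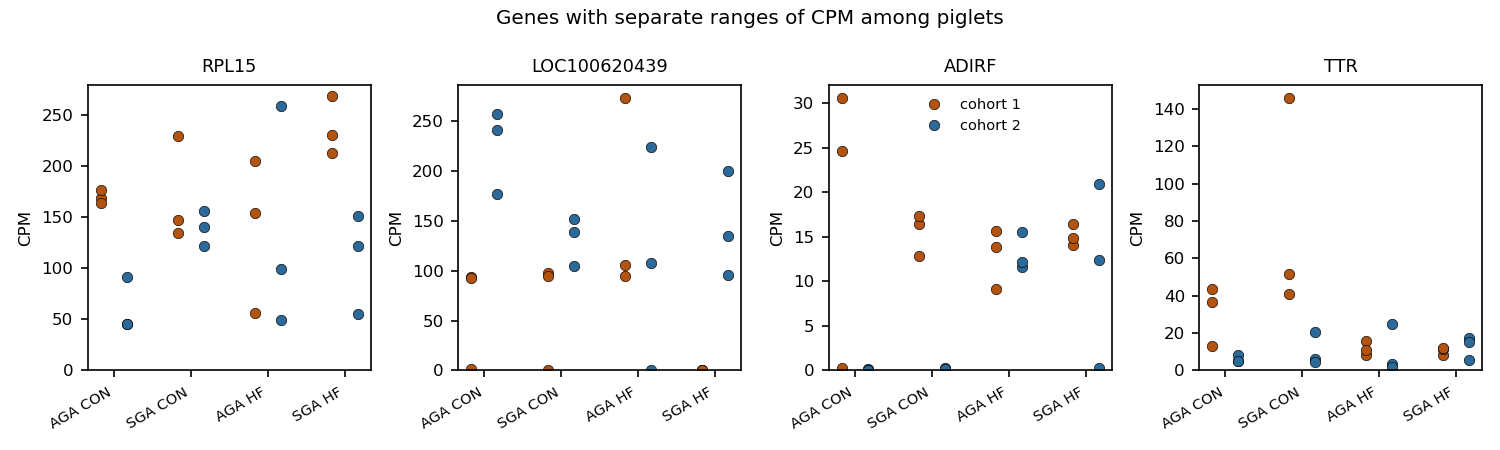
CPM of RPL15, LOC100620439, ADIRF and TTR in each piglet by group (AGA CON, SGA CON, AGA HF, SGA HF), orange for cohort 1 and blue for cohort 2. ADIRF is under 1 CPM in all 6 CON piglets of cohort 2, and LOC100620439 is under 1 CPM in 5 piglets of cohort 1 and 1 of cohort 2.

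The size difference between SGA and AGA did not depend on cohort for any gene past adjustment. By edgeR, 0 genes were called for this interaction and 591 (3.62%) had an unadjusted p under 0.05. The 3 genes with the smallest p were GH1, which rested on the SGA HF replicate 4 library, MIEN1 (0.51 ± 0.12, adjusted p = 0.999) and BFSP2 (0.85 ± 0.20, adjusted p = 0.999). The SGA minus AGA log2 difference of MIEN1 was -0.25 in cohort 1 and 0.27 in cohort 2.

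One measure of the libraries differed between cohorts. Reads on mitochondrial rRNA and tRNA share a single nameless entry, and their share of the counts was 0.996 ± 0.160% in cohort 1 and 0.788 ± 0.061% in cohort 2 (n = 6 litters each; two-sided exact permutation test over 924 divisions, p = 0.00433, adjusted p = 0.026 over 6 measures). The smallest p this design allows is 0.00216. The share in the 100 most counted genes was 20.1 ± 0.353% and 20.6 ± 0.461% (exact permutation p = 0.039, adjusted p = 0.117). Genes with a count, hemoglobin share and the slope of level on exon length had adjusted p of 0.455 to 0.543. What part these measures had in the gene results was not tested. None of the 6 measures is RNA integrity itself. The paper gives an average RNA quality number over its samples but none by cohort, so integrity could not be compared.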

How the data were processed

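Hippocampal polyadenylated RNA of 24 piglets was sequenced strand-specifically. Per the file headers and the study's methods, the authors trimmed single-end reads with Trimmomatic 0.33, aligned them to Sscrofa10.2 with STAR 2.5.2a and counted reads per gene with featureCounts (Subread 1.5.0), leaving out multi-mapped reads; the deposited values are raw counts. Names came from an Sscrofa11.1 RefSeq table, which matched 23036 of 38882 genes. The entry without identifier was left out of library sizes.

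Counts were summed over the 2 piglets of a litter. Cohort 2 was compared with cohort 1 by edgeR 4.0.16 (R 4.3.3) quasi-likelihood tests with TMM scaling on genes with at least 1 CPM in 3 libraries (16326 genes), with diet, sex and cohort as terms, and Benjamini-Hochberg adjusted p under 0.05 as a call. Interactions of cohort with diet were fitted on litter sums, and with size within litters. CPM means ± SD are over 6 litters per cohort, piglet values over 12. SE is the fold change divided by the root of F. Alternatives used limma 3.58.1, DESeq2 1.42.0 and sva 3.50.0. Genes named are, in each direction, the 10 called genes with a symbol and the smallest p, the 5 with the largest change at 5 CPM or more, called list members, PEA15, HSPA8 and GH1, and the top 3 of each interaction. Members and lists were chosen with earlier results of these data known, and 3 lists were added after values were seen. No gene of the mitochondrial genome list was matched, so it is not reported. The scripts were tested on simulated data. The limit of 3 counts covers counting error only. Some genes that meet the naming rule are not reported here.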

Additional observations from a re-analysis of the deposited data

Results flagged for a closer look

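Each group of 6 litters was searched for a litter far from the other 5, in 198 groups over 93 genes and the library measures. By chance about 1 group in 20 is picked out, and 19 were.

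Litter 4 of cohort 1 was high for OAS2 (107 CPM against 41.5 to 54.7 CPM in the other litters), CD3E (4.05 CPM against 0 to 1.44) and SLA-3 (349 CPM against 43.4 to 123). The same litter was high for 3 glial genes, CLU (7310 CPM against 5720 to 6250), APOE (4710 CPM against 3560 to 3880) and FABP7 (1080 CPM against 582 to 733), and for the share of counts in the entry without identifier (1.3% against 0.872 to 1.02%).

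Litter 7 of cohort 2 was high for GH1 (163 CPM against 0 to 0.352), OLIG1 (844 CPM against 676 to 709), FOXJ1 (90.2 CPM against 59.9 to 68.8), CFAP126 (51.2 CPM against 34.6 to 39.9) and CXCL9 (0.19 CPM against 0 to 0.0704), and low for STMN2 (1120 CPM against 1470 to 1650). FOXJ1 and CFAP126 are genes of motile cilia. The CXCL9 values all lie below 0.323 CPM, the lowest level to which 3 counts in a library corresponded. Litter 12 was high for CXCL10 (5.49 CPM against 0.646 to 1.90) and HSP90AA1 (1270 CPM against 1070 to 1140).

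Single values remained for AGPAT4 in litter 9 (137 CPM against 118 to 122), MVB12B in litter 1 (314 CPM against 346 to 361), SREBF2 in litter 10 (619 CPM against 656 to 677) and TTR in litter 2 (95.4 CPM against 10.0 to 39.0). The diet difference of ADIRF in cohort 2 minus that in cohort 1, 7.13 on the log2 scale, was picked out by its interaction test.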

How the results depend on the processing

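Against 28 higher and 45 lower calls (73), counts of higher, lower and all calls were 113, 105 and 218 with the 24 libraries as units, 70, 78 and 148 with the litter as a random block (limma voom replicate block, pairing littermates), and 130, 97 and 227 by DESeq2. They were 314, 366 and 680 without a filter on low counts, 15, 38 and 53 with library totals only, and 37, 17 and 54 without a sex term. With 5 surrogate variables, in a fit that also took the 24 libraries as units, they were 1, 39 and 40, and 20 of the 73 stayed called. That fit compares with the 218 calls above rather than with the 73. At an adjusted p under 0.4 the counts were 668, 797 and 1465. Within subsets they were 0, 17 and 17 in AGA piglets, 4, 7 and 11 in SGA piglets, 2, 26 and 28 in CON litters, 5, 7 and 12 in male litters, 42, 17 and 59 in HF litters and 7, 63 and 70 in female litters, all of which hold fewer samples. Higher calls outnumbered lower calls with 24 libraries, by DESeq2, without the sex term and in HF litters. Leaving out 1 litter at a time gave 1 (litter 3) to 62 (litter 4) higher, 10 (litter 3) to 115 (litter 7) lower and 11 to 149 in all, and 1 to 2 genes for the diet interaction (2 without litter 10). Of the 73 genes, 11 stayed called without litter 3 and 55 without litter 7. Without litters 3 and 4, a choice made after seeing the data, 1 gene was called higher and 0 lower. FAM222A, higher in the reported fit, had -0.11 with surrogate variables (adjusted p = 0.893). No other of the 73 changed direction in any of these settings, which reuse the litters that gave the calls. Apart from the smaller subsets and the looser threshold, the cause of these changes in count was not tested. The share in the entry without identifier differed by -0.228 percentage points in AGA and -0.188 in SGA piglets, neither past adjustment. Depth limits genes near 1 CPM: 3 counts are 0.323 to 0.499 CPM.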

Other observations

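Genes of cholesterol synthesis, which supplies the sterol of myelin membranes, had log2 fold changes above 0 in 20 of 21 tested members (7621 of all 16326 tested genes). The median was 0.14, and 5 members were higher at an unadjusted p under 0.05 (5.13% of all tested genes). None passed adjustment. The nearest was DHCR7, the enzyme of the last step of the pathway, with 79.9 and 96.3 CPM in cohorts 1 and 2 (0.27 ± 0.059, adjusted p = 0.0623). SREBF2, the transcription factor of the pathway, had 0.19 ± 0.057 (adjusted p = 0.206). Without litters 3 and 4 all 21 members lay above 0 and the median was 0.196, in a fit that reuses the same litters and whose cohort 1 is all male.

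Among endothelial genes ABCG2, an efflux transporter of the blood-brain barrier, had 11.8 and 8.16 CPM (-0.54 ± 0.12, adjusted p = 0.0571), and among astrocyte genes SLC1A3, a glutamate transporter, had 84.5 and 58.3 CPM (-0.49 ± 0.14, adjusted p = 0.177). The medians of both lists lay near 0 without litters 3 and 4, at -0.0265 and 0.0103.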
